A study of Arabidopsis thaliana with 12 samples.

Results

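Beta-glucosidases of glycoside hydrolase family 1 were followed in Arabidopsis thaliana shoot apices through 7 genes: BGLU15 (AT2G44450), BGLU21 (AT1G66270), BGLU25 (AT3G03640), BGLU33 (AT2G32860), BGLU45 (AT1G61810), BGLU46 (AT1G61820) and BGLU47 (AT4G21760). The genes were chosen by name, with earlier results of these data known. Every probe set that the platform annotation pairs with 1 of these genes alone was taken, which gave 1 probe set for each. They are 7 of the 3602 genes that have a probe set of their own on the array. The list of family genes held 48 names, so 41 others exist besides these, and 2 of those, BGLU28 and BGLU29, had a probe set of their own. A gene is said here to have a probe set only where the annotation names that gene alone for it. The annotation named no gene for 4383 of 8247 probe sets and several for 70. A gene without a probe set in this sense may therefore still be measured on the array.

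The study measured shoot apex RNA on 12 one-colour arrays, a single array per combination of 4 genotypes and 3 days. Plants of all genotypes spent 30 short days (9 h light, 15 h dark) at 21 °C before long days (16 h light, 8 h dark) began, and apices were taken on days 0, 2 and 4 of long days. The genotypes combine alleles of FRIGIDA (FRI), whose active form raises the expression of FLOWERING LOCUS C (FLC), with alleles of FLC, a MADS-box repressor of flowering. fri(Col)-FLC(Col) is the Col-0 wild type with an inactive FRI allele, and fri(Col)-flc-3 has the same FRI allele with a deletion of FLC. FRI(Sf-2)-FLC(Col) has the active FRI allele of the Sf-2 accession with an intact FLC, and FRI(Sf-2)-flc-3 has that FRI allele with the deletion. All plants experienced the move to long days, and no plants kept in short days past day 0 are among the samples, so the light regime, plant age and time cannot be told apart. The labels give neither the hour of sampling nor the number of plants pooled.

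Family 1 beta-glucosidases remove a glucose residue from small glucosides, and plants use them to release stored or transported compounds such as lignin precursors, coumarins, flavonols and defence compounds. BGLU45 and BGLU46 act on monolignol glucosides such as coniferin, which carry lignin precursors, and BGLU47 is grouped with them by sequence. BGLU15 acts on flavonol 3-O-glucoside-7-O-rhamnosides, and BGLU21 acts on scopolin, a coumarin glucoside best known from roots.

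Values are deposited log2 signals, and a difference of 1 on this scale is a doubling. Every gene's value depends on its own probes, so levels were compared between arrays within a gene and not between genes. With 1 array per genotype and day, differences were tested with limma under a model additive in genotype and day, adjusted over the 6185 tested probe sets with a threshold of 0.05. The standard error (SE) of a difference is therefore the spread that this model leaves, and a genotype difference rests on 3 arrays, 1 per day. All 7 genes passed the filter on low signal. FRI and FLC had no probe set of their own, so no check of the labels on these genes could be made. The array of FRI(Sf-2)-flc-3 on day 2 stood apart from the others, with a residual spread of 0.165 against 0.097 to 0.132. The mean of its BioB control probe sets was 7.41. That mean was lowest on the FRI(Sf-2)-FLC(Col) arrays, at 5.78, 5.69 and 5.83 on days 0, 2 and 4, and ran from 5.86 to 6.18 on the rest. A part of this control shift in the genotype differences was not tested. Of the marker lists, 3 of 20 shoot meristem and young organ genes had a probe set of their own (UFO, YAB3 and PHV), as did 1 of 8 leaf mesophyll genes (RCA). None of 9 root or 8 vascular genes had one. UFO measured 3.36 to 4.07, PHV 7.93 to 8.47, the 2 tested YAB3 probe sets 7.86 to 8.46 and 8.72 to 9.27, and RCA 10.4 to 11.24.

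The genotype that combines active FRI with intact FLC was first set against the mean of the other 3 genotypes. BGLU47 was higher there by 0.51 ± 0.0758 (SE) on the log2 scale, and it was the 1 gene of the 7 to pass the threshold (limma, adjusted p = 0.0118), against 0.76% of all tested probe sets. BGLU33 had a slightly larger difference with a wider error, 0.55 ± 0.146, which did not pass (limma, adjusted p = 0.128). BGLU45, BGLU46 and BGLU25 had differences of 0.36 ± 0.150, 0.32 ± 0.144 and 0.27 ± 0.0868 (limma, adjusted p from 0.259 to 0.456). Without the FRI(Sf-2)-FLC(Col) array of day 4 the BGLU45 and BGLU46 differences were 0.14 and 0.18, and without its day 2 array that of BGLU33 was 0.32. BGLU21 had a difference of -0.28 ± 0.131 and BGLU15 one of 0.05 ± 0.087 (limma, adjusted p = 0.473 and 0.885), and without the FRI(Sf-2)-FLC(Col) array of day 0 the BGLU21 difference was -0.18. Thus 6 of 7 differences lay above 0, where 51% of all tested probe sets did, and the median over the 7 genes was 0.32 against 0.00 over all tested probe sets. At an unadjusted p under 0.05 there were 5 of the 7, against a background of 10.7%. Because the genes were chosen with earlier results of these data known, these counts describe the 7 genes and are no test of the family. BGLU45 and BGLU46 also moved alongside each other, so they do not count as independent members.

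**Figure D1:**
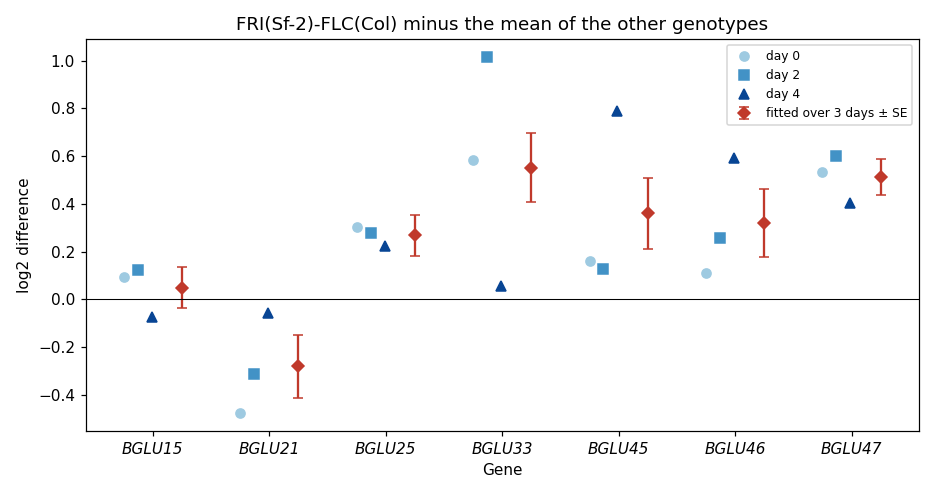
Log2 difference between FRI(Sf-2)-FLC(Col) and the mean of the other 3 genotypes for each of the 7 genes, with the limma estimate and SE and the difference on each of the 3 days. BGLU47 lies near 0.5 on every day, whereas the BGLU33 differences run from 0.05 to 1.02.

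BGLU47 was the member with calls between genotypes. On days 0, 2 and 4 it measured 5.44, 5.64 and 4.41 in FRI(Sf-2)-FLC(Col), and 5.11, 5.33 and 4.23 in FRI(Sf-2)-flc-3. It measured 4.83, 4.99 and 3.86 in fri(Col)-FLC(Col), and 4.78, 4.79 and 3.93 in fri(Col)-flc-3. On each day the order was the same for the upper genotypes: FRI(Sf-2)-FLC(Col) was highest, FRI(Sf-2)-flc-3 came next and both fri(Col) genotypes lay below, although the ranges over all days overlapped. FRI(Sf-2)-FLC(Col) exceeded the mean of the other genotypes by 0.53, 0.60 and 0.40 on the 3 days, a 1.43-fold difference overall and the 10th smallest p of 6185. With FLC intact, the FRI(Sf-2) allele went with a BGLU47 signal 1.52-fold higher than the fri(Col) allele did, 0.61 ± 0.0928 on the log2 scale (limma, adjusted p = 0.0211), with day values of 0.61, 0.65 and 0.55. That was 1 of 7 genes called in this comparison, against 0.178% of all tested probe sets. With FLC deleted, the same allele difference was 0.39 ± 0.0928, with day values of 0.33, 0.54 and 0.29, and it did not pass (limma, adjusted p = 0.343); 0 of the 7 genes passed there, against 0.0808%, with 2 at an unadjusted p under 0.05 against 8.99%.

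The 2 allele differences of BGLU47 were not shown to differ from each other. The interaction of FRI and FLC was 0.22 ± 0.131 (limma, adjusted p = 0.809). It passed for 0 of the 7 genes, against 0.0323%, and 1 of the 7 reached an unadjusted p under 0.05, against 7.26%. Averaged over both FLC states, a comparison added after the values were seen, BGLU47 was 0.50 ± 0.0656 higher with FRI(Sf-2), 1.41-fold (limma, adjusted p = 0.00531), with day values of 0.47, 0.60 and 0.42. It was again 1 of 7 called, against 0.21%. BGLU47 was also the 1 member in which both FRI(Sf-2) genotypes exceeded both fri(Col) genotypes on all 3 days, an order held by 0.857% of tested probe sets and likewise looked for after the values were seen. The difference between intact and deleted FLC was 0.27 ± 0.0928 with active FRI and 0.05 ± 0.0928 with inactive FRI, and neither passed (limma, adjusted p = 0.274 and 1). The annotation places BGLU47 on chromosome 4, the chromosome that also carries FRI. The distance between them is not given here, and a part of linked Sf-2 DNA in the difference was not tested.

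Of these 3 BGLU47 calls, the one averaged over FLC kept its call with any 1 of the 12 arrays left out, and the others were lost without some arrays although the differences stayed near their size. Against the other genotypes, the difference was 0.50 (limma, adjusted p = 0.0552) without the FRI(Sf-2)-FLC(Col) array of day 0 and 0.47 (limma, adjusted p = 0.129) without that of day 2. With FLC intact, the allele difference lost its call without any 1 of the 3 fri(Col)-FLC(Col) arrays or of those 2 arrays, at values from 0.56 to 0.62 (limma, adjusted p from 0.0721 to 0.232). With day as a number in place of 3 levels, all 3 genotype calls were lost (limma, adjusted p from 0.520 to 0.913). The differences themselves stayed at 0.51, 0.61 and 0.50. A single slope over the days does not follow the late fall of BGLU47, and what it leaves enters the residual spread. Without the array that stood apart the 3 calls were kept (limma, adjusted p = 0.0131, 0.0208 and 0.0122).

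**Figure D2:**
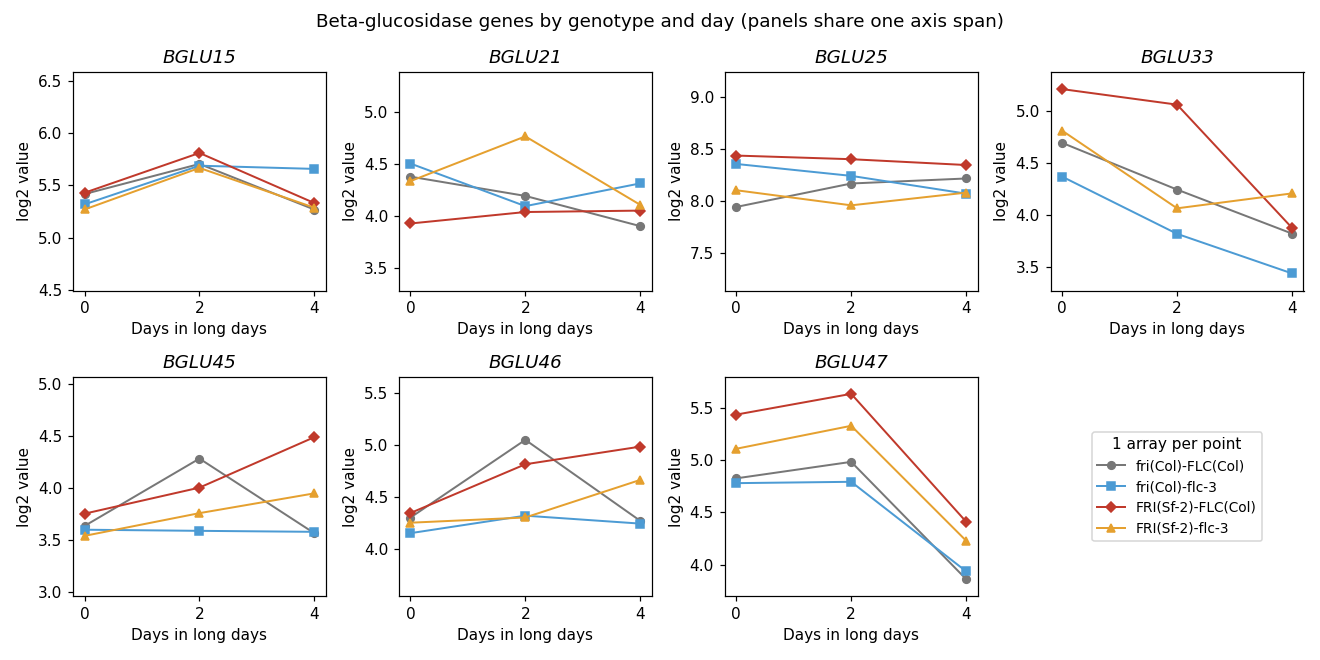
Deposited log2 signal of each of the 7 genes on days 0, 2 and 4 of long days in the 4 genotypes, 1 point per array, with a line joining the arrays of a genotype. BGLU47 falls between day 2 and day 4 in all 4 genotypes with both FRI(Sf-2) genotypes above both fri(Col) genotypes on each day, and BGLU33 falls from day 0 to day 4 in all 4.

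Across the days BGLU47 fell late. Its mean over the 4 genotypes was 5.04 ± 0.304 (SD, n = 4) on day 0, 5.19 ± 0.374 on day 2 and 4.11 ± 0.257 on day 4, and every day 4 array lay below every array of days 0 and 2, an order held between days 2 and 4 by 3.64% of tested probe sets. From day 0 to day 4 it fell by 0.93 on the log2 scale (SE 0.0804), a 1.91-fold decrease (limma, adjusted p = 8.82e-06). The genotype values were -0.97 in fri(Col)-FLC(Col), -0.85 in fri(Col)-flc-3, -1.03 in FRI(Sf-2)-FLC(Col) and -0.88 in FRI(Sf-2)-flc-3, so all 4 genotypes shared the fall. Between day 2 and day 4 it fell by 1.08 on the log2 scale (SE 0.0804), a 2.11-fold decrease (limma, adjusted p = 4.54e-05) and the second smallest p of all 6185 tested probe sets. From day 0 to day 2 the difference was 0.15 ± 0.0804 and did not pass (limma, adjusted p = 0.294). Both falls of BGLU47 kept their call with any 1 of the 12 arrays left out.

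BGLU45 and BGLU46, neighbouring genes on chromosome 1, moved alongside each other and passed in no genotype or day comparison. BGLU45 measured 3.75, 4.00 and 4.49 on days 0, 2 and 4 in FRI(Sf-2)-FLC(Col), and 3.54, 3.76 and 3.95 in FRI(Sf-2)-flc-3. In fri(Col)-FLC(Col) it measured 3.63, 4.28 and 3.56, and in fri(Col)-flc-3 3.60, 3.59 and 3.58. The BGLU45 values of the genotypes overlapped, with the highest on day 4 of FRI(Sf-2)-FLC(Col), the next on day 2 of fri(Col)-FLC(Col), and little movement in fri(Col)-flc-3. BGLU46 measured 4.35, 4.82 and 4.99 in FRI(Sf-2)-FLC(Col), and 4.26, 4.31 and 4.67 in FRI(Sf-2)-flc-3. It measured 4.31, 5.05 and 4.27 in fri(Col)-FLC(Col), and 4.16, 4.32 and 4.25 in fri(Col)-flc-3. BGLU46 peaked on the same day as BGLU45 in each of the 3 genotypes where BGLU45 moved, and its genotype values overlapped as well.

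Over the 12 arrays, BGLU45 and BGLU46 had a Pearson r of 0.952 and a Spearman rho of 0.853, given as a description of values from the same arrays. After centring by day r was 0.948, after centring by genotype 0.934, and without the 2 arrays farthest from the BGLU45 median 0.920. The arrays fell into a low group of 8, with BGLU45 from 3.54 to 3.76 and BGLU46 from 4.16 to 4.35, and 4 arrays above it, with BGLU45 from 3.95 to 4.49 and BGLU46 from 4.67 to 5.05. Within the 8 low arrays r was 0.517 and rho 0.524, so the high pooled value rests on the 4 arrays in which both genes were high: days 2 and 4 of FRI(Sf-2)-FLC(Col), day 4 of FRI(Sf-2)-flc-3 and day 2 of fri(Col)-FLC(Col). In FRI(Sf-2)-FLC(Col) the change from day 0 to day 4 was 0.73 for BGLU45, against a mean of 0.11 in the other 3 genotypes. That difference in response was 0.63 ± 0.334 for BGLU45 and 0.48 ± 0.356 for BGLU46, and neither passed (limma, adjusted p = 1). It passed for 0 of the 7 genes, against 0.0162% of all tested probe sets, and none of the 7 reached an unadjusted p under 0.05, where 1.92% of all did. From day 0 to day 2 the differences were 0.28 ± 0.160 for BGLU45 and 0.36 ± 0.153 for BGLU46 (limma, adjusted p = 0.324 and 0.170), and with array weights BGLU46 passed at 0.48 (limma, adjusted p = 0.0359). The probe sequences were not analysed here, so signal from one gene reaching the other's probe set cannot be told apart from shared expression.

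**Figure D3:**
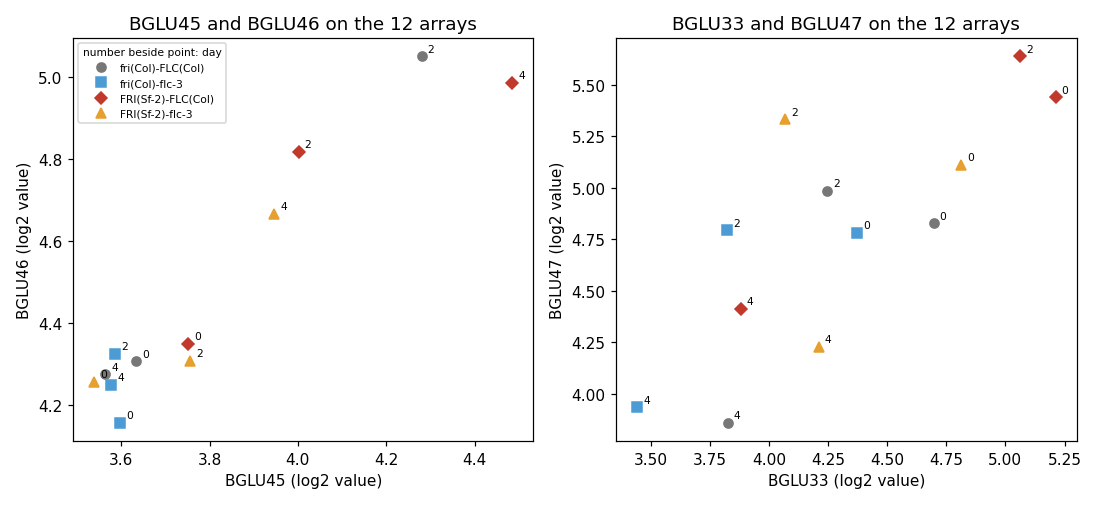
Log2 signal of BGLU46 against BGLU45 and of BGLU47 against BGLU33, 1 point per array, with genotype and day marked. For BGLU45 and BGLU46, 8 arrays lie together at low values and 4 lie above them along a line (r = 0.952 over all 12), and the arrays are more evenly spread for BGLU33 and BGLU47 (r = 0.773).

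BGLU15, the flavonol glycoside hydrolase, was higher on day 2 than on day 0. It measured 5.43, 5.81 and 5.33 on the 3 days in FRI(Sf-2)-FLC(Col), and 5.27, 5.67 and 5.29 in FRI(Sf-2)-flc-3. In fri(Col)-FLC(Col) it measured 5.42, 5.71 and 5.27, and in fri(Col)-flc-3 5.32, 5.69 and 5.66. Every day 2 array lay above every array of day 0 and of day 4, and the fri(Col)-flc-3 array of day 4 alone among the day 4 arrays stayed near the day 2 level. The mean was 5.36 ± 0.078 (SD, n = 4) on day 0, 5.72 ± 0.064 on day 2 and 5.39 ± 0.184 on day 4. It rose by 0.36 ± 0.0923 (SE) to day 2, 1.28-fold (limma, adjusted p = 0.0257), with genotype values from 0.29 to 0.40. It was 1 of 7 genes called between days 0 and 2, against 10.7% of tested probe sets, and 7.49% of all probe sets had day 2 arrays wholly above day 0. By day 4 the difference from day 0 was 0.03, and the difference from day 2 was -0.33 ± 0.0923 (limma, adjusted p = 0.0681). The day 2 call was lost without any 1 of 6 arrays (limma, adjusted p from 0.0508 to 0.111): the day 2 array of fri(Col)-FLC(Col), the day 0 array of fri(Col)-flc-3, and the day 0 and day 2 arrays of both FRI(Sf-2) genotypes. Without the day 4 array of fri(Col)-flc-3, the difference of day 4 from day 2 was -0.44 and passed (limma, adjusted p = 0.0195).

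BGLU21, the scopolin hydrolase, was lowest where active FRI and intact FLC met on days 0 and 2, without passing the threshold. It measured 3.93, 4.04 and 4.05 in FRI(Sf-2)-FLC(Col), and 4.34, 4.77 and 4.11 in FRI(Sf-2)-flc-3. In fri(Col)-FLC(Col) it measured 4.38, 4.19 and 3.90, and in fri(Col)-flc-3 4.51, 4.10 and 4.31. The 3 arrays of FRI(Sf-2)-FLC(Col) all lay below the 3 of FRI(Sf-2)-flc-3, as did those of 5% of tested probe sets, and on day 4 fri(Col)-FLC(Col) was lower still. The difference between intact and deleted FLC with active FRI was -0.40 ± 0.160 (limma, adjusted p = 0.359). The highest BGLU21 value, 4.77, came from the array that stood apart, and without that array the difference was -0.19 (limma, adjusted p = 0.702). BGLU21 lies next to BGLU22, a closely related gene without a probe set of its own, and a share of BGLU22 signal cannot be told apart here.

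BGLU25 varied with genotype more than with day, within a narrow range of 0.493. It measured 8.44, 8.40 and 8.35 in FRI(Sf-2)-FLC(Col), and 8.11, 7.96 and 8.08 in FRI(Sf-2)-flc-3. In fri(Col)-FLC(Col) it measured 7.95, 8.17 and 8.22, and in fri(Col)-flc-3 8.36, 8.24 and 8.07. FRI(Sf-2)-FLC(Col) was highest on each of the 3 days, as it was for BGLU47 and for 4.2% of tested probe sets, and the day 0 array of fri(Col)-flc-3 fell within its range. With active FRI, intact against deleted FLC gave 0.35 ± 0.106 (limma, adjusted p = 0.231), and with intact FLC, FRI(Sf-2) against fri(Col) gave 0.29 ± 0.106 (limma, adjusted p = 0.561). The 3 arrays of each group did not overlap in either comparison, which held in the same direction for 5.01% and 3.95% of tested probe sets. Its interaction of FRI and FLC, 0.46 ± 0.150, had the smallest unadjusted p of the 7 genes (0.00996) and did not pass (limma, adjusted p = 0.550). The identifier of this probe set marks it as one whose probes may match related transcripts.

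BGLU33 fell from day 0 to day 4. It measured 5.21, 5.06 and 3.88 in FRI(Sf-2)-FLC(Col), and 4.81, 4.07 and 4.21 in FRI(Sf-2)-flc-3. In fri(Col)-FLC(Col) it measured 4.70, 4.25 and 3.83, and in fri(Col)-flc-3 4.37, 3.82 and 3.44. The day 0 arrays all lay above the day 4 arrays, as in 11.4% of tested probe sets, and the day 2 value of FRI(Sf-2)-FLC(Col) remained close to its day 0 value while the other genotypes were already lower on day 2. The mean was 4.77 ± 0.347 (SD, n = 4) on day 0, 4.30 ± 0.537 on day 2 and 3.84 ± 0.315 on day 4. It fell by 0.93 on the log2 scale from day 0 to day 4 (SE 0.155), a 1.91-fold decrease (limma, adjusted p = 0.00118). The genotype values were -0.87 in fri(Col)-FLC(Col), -0.93 in fri(Col)-flc-3, -1.33 in FRI(Sf-2)-FLC(Col) and -0.60 in FRI(Sf-2)-flc-3. The response of FRI(Sf-2)-FLC(Col), -1.33 against a mean of -0.80 in the other 3, differed by -0.53 ± 0.254 and did not pass (limma, adjusted p = 1). The fall to day 4 kept its call with any 1 of the 12 arrays left out. Day 4 values of BGLU33 were low, with 3.44 in fri(Col)-flc-3 below the filter value of 3.56, which limits what differences on that day can show.

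By genotype, BGLU33 was higher in FRI(Sf-2)-FLC(Col) by 0.59 on day 0, 1.02 on day 2 and 0.05 on day 4, without a call over the 3 days. Averaged over FLC, the FRI(Sf-2) allele went with a difference of 0.47 ± 0.126, and averaged over FRI, intact FLC with one of 0.37 ± 0.126 (limma, adjusted p = 0.274 and 0.536). Without the FRI(Sf-2)-FLC(Col) array of day 4, the difference from the other genotypes was 0.80 and passed (limma, adjusted p = 0.0395), and it also passed with array weights, at 0.55 (limma, adjusted p = 0.0371). From day 0 to day 2 the difference over genotypes was -0.47 ± 0.155 (limma, adjusted p = 0.0742), and it passed without the FRI(Sf-2)-FLC(Col) array of day 2 or of day 4 or the FRI(Sf-2)-flc-3 array of day 4 (limma, adjusted p = 0.0139, 0.0249 and 0.0443).

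**Figure D4:**
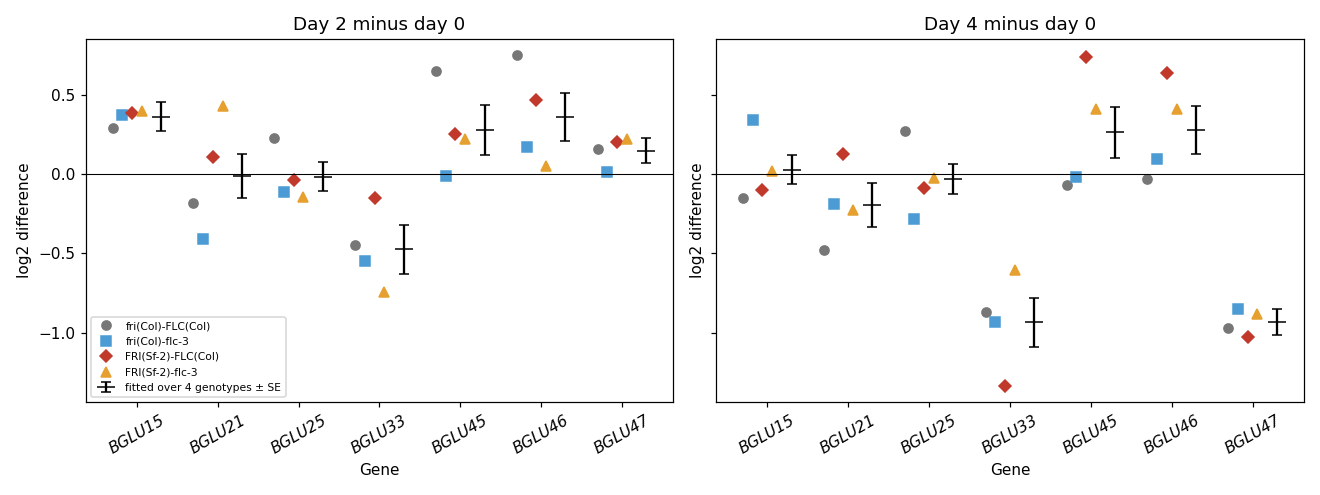
Log2 difference of day 2 (left) and of day 4 (right) from day 0 for each of the 7 genes, with the value in each genotype and the limma estimate ± SE over the 4 genotypes. On day 4 the estimates of BGLU33 and BGLU47 lie at -0.93 with all 4 genotypes below 0, and on day 2 the genotypes lie close together for BGLU15 (0.29 to 0.40) and far apart for BGLU46.

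Across the days the members followed different courses. From day 0 to day 4, 2 of the 7 genes passed, both lower, against 18.3% of all tested probe sets in either direction and 9.49% lower. From day 2 to day 4, 1 of 7 passed, BGLU47, against 4.35%, and all 7 differences lay at or below -0.01 where 57.1% of all tested probe sets lay above 0. Those of BGLU45, BGLU25 and BGLU46 were near 0, at -0.01, -0.01 and -0.08, and each changed sign under some alternatives. The 7 genes were chosen with earlier results known, so the shared sign describes them and is no test of the family. BGLU45 and BGLU46 had day 4 values above day 0 by 0.26 ± 0.160 and 0.28 ± 0.153, BGLU21 had a difference of -0.19 ± 0.139, and BGLU25 one of -0.03, none of which passed (limma). Among the markers, the YAB3 probe set with the higher signal and PHV rose from day 0 to day 4 by 0.29 ± 0.0746 and 0.29 ± 0.0892 (limma, adjusted p = 0.0171 and 0.0435), and RCA fell from day 2 to day 4 by 0.47 on the log2 scale (SE 0.106, limma, adjusted p = 0.0301). The part of these marker shifts in the BGLU33 and BGLU47 falls was not tested, and in whole apices fewer cells of a type and less RNA per cell cannot be told apart. The PHV call was lost without any 1 of 8 arrays, the RCA call without any 1 of 7 and the YAB3 call without any 1 of 4. No marker probe set passed between genotypes.

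FLC gave no call among the members. The comparison of intact with deleted FLC passed for 0 of the 7 genes with active FRI (limma), against 0.146% of tested probe sets, with 3 at an unadjusted p under 0.05 against 11.8%. With inactive FRI it passed for 0 of 7, against 0.0162%, and none reached an unadjusted p under 0.05, against 2.47%. Averaged over FRI, a comparison added after the values were seen, it passed for 0 of 7, against 0.0485%, with 5 at an unadjusted p under 0.05 against 7.19%. Those 5 were BGLU21 at -0.27 ± 0.113, BGLU33 at 0.37 ± 0.126, BGLU45 at 0.29 ± 0.130, BGLU46 at 0.30 ± 0.125 and BGLU47 at 0.16 ± 0.0656. Without the array that stood apart, these differences were -0.17, 0.27, 0.26, 0.22 and 0.17 in the same order. The genes were chosen with earlier results of these data known, and BGLU45 and BGLU46 moved alongside each other. The count of 5 is therefore a description and no test of the family. The genotype comparisons of this paragraph share arrays with one another, so their values are not independent.

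The split of variance over the 12 arrays differed from member to member. Day took 75.4% of the variance of BGLU47, genotype 23.5% and the remainder 1.10%. For BGLU15 day took 71.0% and genotype 8.52%, and for BGLU33 day took 53.3% and genotype 32.9%. BGLU25 was the reverse, with 67.6% for genotype and 0.638% for day. BGLU21, BGLU45 and BGLU46 left 48.3%, 45.6% and 40.3% to neither. Over all tested probe sets the median shares were 32.7% for day, 19.5% for genotype and 39.7% for the remainder.

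**Figure D5:**
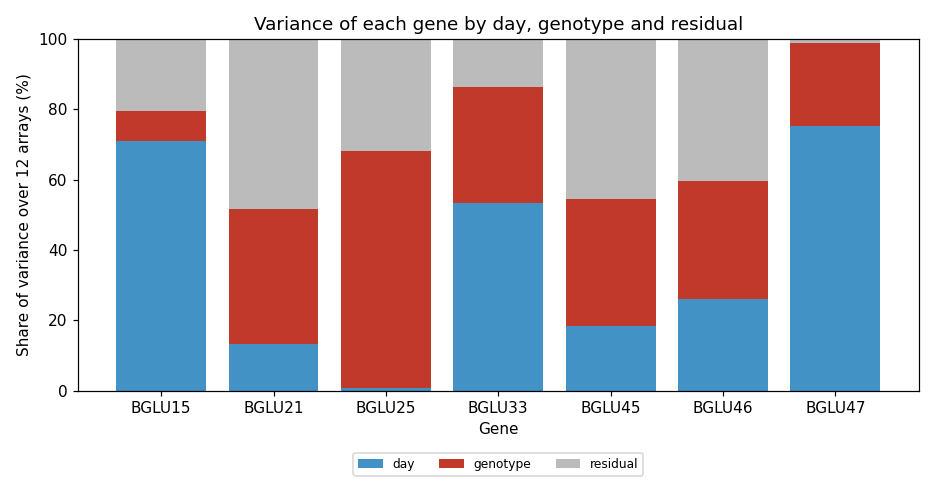
Percent of each gene's variance over the 12 arrays that goes with day, with genotype and with neither. Day leads in BGLU47 (75.4%), BGLU15 (71.0%) and BGLU33 (53.3%), and genotype leads in BGLU25 (67.6%).

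Of the 21 pairs of members, 14 had a Pearson r above 0 over the 12 arrays, with a median of 0.134 and a range from -0.596 for BGLU21 and BGLU25 to 0.952 for BGLU45 and BGLU46. BGLU33 and BGLU47, the genes that fell by day 4, had an r of 0.773 and a rho of 0.748. Their r was 0.802 after centring by day, 0.723 after centring by genotype and 0.616 without the 2 arrays farthest from the BGLU33 median. The arrays share genotypes and days, so these values describe likeness only.

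Among the tested probe sets with 1 gene, the patterns most like BGLU45 over the 12 arrays were those of BGLU46 (r = 0.952) and SBE2.2, a starch branching enzyme (r = 0.922), and SBE2.2 was also close to BGLU46 (r = 0.918). BGLU47 was most like UBC29, a ubiquitin-conjugating enzyme (r = 0.917), AT5G45350 (r = 0.910) and NCRK, a receptor-like kinase (r = 0.910). BGLU33 was most like AT2G39850 (r = 0.956), AT4G00780 (r = 0.953) and bHLH104, a transcription factor of the iron deficiency response (r = 0.938). For BGLU21 the leading genes were AT4G19720 (r = 0.930) and AT4G16640 (r = 0.913), for BGLU25 AT2G23110 (r = 0.883) and AT1G67300 (r = 0.827), and for BGLU15 AT4G25030 (r = 0.871) and AT4G01150 (r = 0.833). These are the highest of many coefficients over 12 arrays and carry no test.

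The other family genes with a probe set of their own fell below the filter on low signal and were not tested. BGLU28, which takes part in glucosinolate breakdown under sulfur deficiency and lies next to BGLU15, ranged from 3.22 to 4.11, highest in FRI(Sf-2)-flc-3 on day 2. BGLU29 ranged from 2.45 to 2.73.

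Few genes of the pathways that make or handle beta-glucosidase substrates had a probe set that the annotation pairs with them alone. Of 25 monolignol genes 2 had a probe set: UGT72E1, which glucosylates lignin precursors, fell by 0.83 on the log2 scale by day 2 (SE 0.116) and by 0.95 by day 4 (SE 0.116; limma, adjusted p = 0.000753 and 0.000132). UGT72E3, of the same enzyme family, had a day 4 difference of 0.01 (limma, adjusted p = 0.957). Of 13 flavonol pathway genes 2 had one, DFR, of the anthocyanin branch, and TT5, chalcone isomerase. In the interval in which BGLU15 rose, to day 2, DFR rose by 0.79 ± 0.180 (limma, adjusted p = 0.0145). TT5 did not pass there (0.33 ± 0.188; limma, adjusted p = 0.313), with -0.06 in FRI(Sf-2)-FLC(Col) and -0.001 in FRI(Sf-2)-flc-3. TT5 fell by 0.76 on the log2 scale from day 2 to day 4 (SE 0.188; limma, adjusted p = 0.0444), a call lost without any 1 of 10 arrays. Of all tested probe sets 10.7% were called between days 0 and 2, 18.3% between days 0 and 4 and 4.35% between days 2 and 4. Of 6 coumarin genes none had a probe set. Neither list had a call between genotypes.

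Of 16 genes for ER bodies, which store beta-glucosidases, and for the PYK10 beta-glucosidase complex, 5 had a probe set: the transcription factor NAI1, the lectins JAL23, JAL31 and JAL34, and the lipase-like GLL23. In FRI(Sf-2)-FLC(Col) against the other genotypes 2 of the 5 were called, both higher, against 0.76% of all tested probe sets. JAL34 was higher by 0.98 ± 0.155 and GLL23 by 0.82 ± 0.146 (limma, adjusted p = 0.0177 and 0.0290). This list was chosen with earlier results of these data known, so the count is a description and no test of ER body genes. The JAL34 call was lost without the FRI(Sf-2)-FLC(Col) array of day 2 or of day 4, and the GLL23 call without any 1 of 6 arrays. From day 0 to day 4 JAL31 and JAL34 fell by 0.83 and 1.09 on the log2 scale (SE 0.125 and 0.165; limma, adjusted p = 0.000605 and 0.000609), while JAL23 rose by 1.25 ± 0.266 (limma, adjusted p = 0.00572). Of all tested probe sets 18.3% were called between these days. NAI1 differed by 0.19 ± 0.0961 between FRI(Sf-2)-FLC(Col) and the others and by -0.11 ± 0.102 between days 0 and 4, and passed in neither (limma, adjusted p = 0.524 and 0.531). JAL34, like BGLU47, was thus called higher in FRI(Sf-2)-FLC(Col) against the other genotypes and lower on day 4 than on day 0. The single genotype differences of JAL34 and BGLU47 were alike in direction but not in size, and the genes were not tested against each other. With active FRI, intact against deleted FLC gave 0.93 ± 0.190 for JAL34 and 0.27 ± 0.0928 for BGLU47. With FLC deleted, FRI(Sf-2) against fri(Col) gave 0.19 ± 0.190 for JAL34 and 0.39 ± 0.0928 for BGLU47. None of these passed (limma, adjusted p from 0.0747 to 0.795). With FLC intact, FRI(Sf-2) against fri(Col) gave 0.89 ± 0.190 for JAL34, which did not pass (limma, adjusted p = 0.155). The same comparison gave 0.61 ± 0.0928 for BGLU47, which passed (limma, adjusted p = 0.0211).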

How the data were processed

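Shoot apex RNA was measured on 12 one-colour arrays, 1 per genotype and day, and groups were taken from the sample titles. The authors deposited 1 log2 value per probe set; the log2 scale was read from the deposited values, from 2.12 to 13.18, while no software, normalization or background correction is given in the sources used here. Array medians lay within 0.0604 of each other, and values were used as deposited.

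Of 8297 probe sets, 50 controls were left out. The platform annotation named 1 gene for 3794 of the other 8247, several for 70 and none for 4383. Probe sets were tested when their mean exceeded the 25th percentile, 3.56, which left 6185. Differences were estimated with limma 3.58.1, run in R 4.3.3 (genotype plus day, eBayes with a trend, two-sided, Benjamini-Hochberg adjustment), with 6 residual degrees of freedom and 5.93 from the prior. The day 4 response of FRI(Sf-2)-FLC(Col) came from a second model with day terms of its own for that genotype and 4 residual degrees of freedom. The fit was tested on simulated data. The number of arrays limits the precision. P-values measure the spread between single arrays about an additive model, with no replicate within a genotype and day.

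The 7 genes and the gene lists were chosen with earlier results of these data known. The rule named all 7, every list gene on the array that was called or belonged to a list of at most 5 such genes, and the genes with the highest Pearson r to each member over the 12 arrays. Alternatives covered scaling, filters, trend, array weights, day as a number and leaving out each array. Probe, protein and promoter sequences were not analysed here, and no coordinates are given because no common genome build is named.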

Additional observations from a re-analysis of the deposited data

How the results depend on the processing

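Genotypes were compared within days through the day term of the model. No paired analysis was possible beyond that, because each genotype and day had 1 array and the titles carry no replicate number. The count of called genes of the 7 moved under some of the 21 alternatives, 12 of which left out 1 array. With the filter at the 50th percentile, which left 2 of the 7 genes in the test, 0 were called in FRI(Sf-2)-FLC(Col) against the other genotypes, in the FRI effect with FLC, in the FRI effect averaged over FLC, and in day 4 against day 0 and against day 2. That filter removed BGLU33 and BGLU47, the members with calls there in the main fit, so the 0 does not bear on their calls. With day as a number 0 were called in those 3 genotype comparisons, where 11, 7 and 9 of all 6185 tested probe sets were called. With array weights 2 were called in FRI(Sf-2)-FLC(Col) against the others, 2 in day 2 against day 0 and 2 in day 4 against day 2. Over all 6185 tested probe sets, array weights gave 117, 918 and 275 calls in these comparisons, against 47, 661 and 269 in the main fit. With 1 array left out, the counts ran from 0 to 2 in FRI(Sf-2)-FLC(Col) against the others, from 0 to 1 in the FRI effect with FLC, from 0 to 2 in day 2 against day 0 and from 1 to 2 in day 4 against day 2. The calls over all probe sets moved as well. For FRI(Sf-2)-FLC(Col) against the others, 5 of 6185 were called without its day 2 array and 20 without its day 4 array, against 47 with all arrays. Over single genes, 1539 of 1599 alternative values kept their sign, none of the other 60 belonged to a call, 16 calls were lost and 8 gained. The scalings moved the median of all probe sets by at most 0.0287. The day 4 response could not be fitted without an array of FRI(Sf-2)-FLC(Col). Signals near the filter, as in BGLU21 and BGLU45 and on day 4 in BGLU33 and BGLU47, limit what small differences can show. The lowest values of BGLU33 and BGLU47, both on day 4, were 3.44 and 3.86, against the filter value of 3.56.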
